A study of Mus musculus with 10 samples.

Results

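The genes described here are ligands of the epidermal growth factor (EGF) family and their ErbB receptors, in organoids of mouse small intestine exposed to tumour necrosis factor (TNF). Of 10 genes chosen by symbol, the ligands Areg, Ereg, Hbegf, Tgfa, Btc, Egf and Nrg1 and the receptors Egfr, Erbb2 and Erbb3, 9 had a value among 19505 genes tested, each from 1 probe set. Areg was not analysed here. None of the 9 passed the test between pegtarazimod and vehicle.

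All organoids were of the BALB/c strain, grew as domes in a basement membrane gel, and were kept with mouse TNF at 20 ng/ml over 48 h. Of the samples, 5 were also given pegtarazimod at 5 mg/ml, a peptide linked to polyethylene glycol (PEG), and the other 5 were given PEG at 2.625 mM as vehicle. The series describes the 5 samples of a group as biological replicates without saying what separated them, so that the p-values measure the spread between these samples. Samples without TNF were not analysed here, and the labels do not say whether the culture medium supplied EGF.

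EGF family ligands are made as precursors anchored in the cell membrane, and metalloproteases of the ADAM family release them. The free ligand joins ErbB receptors into pairs, which signal through Ras and the kinase ERK. Egfr binds EGF, TGF-alpha, amphiregulin, betacellulin, epiregulin and heparin-binding EGF. Erbb3 binds neuregulins and has little kinase activity of its own, and Erbb2 has no known ligand and serves as the preferred partner of the others. In the small intestine Paneth cells at the crypt base are known to make EGF and TGF-alpha, and EGF is a standard requirement of the crypt stem cell in culture.

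Each value is a log2 expression level on 1 array, so a difference of 1 is a factor of 2. Probes differ in how well they bind, so the level of 1 gene says nothing of its amount relative to another gene. Differences are pegtarazimod minus vehicle, given with the standard error (SE) of the linear model fit by limma. Over all genes 4.89% passed at an adjusted p below 0.05, with 2.50% higher and 2.39% lower with pegtarazimod. Without adjustment, 19.0% of all genes and 3 of the 9 measured members (Hbegf, Erbb2 and Erbb3) had a p below 0.05. The median difference of the 9 was -0.09, against 0.00 over all genes, and their median size was 0.14, against 0.11. The 95% intervals of single members, which were not adjusted for the number of genes, reached from -0.59 at the lowest to 0.59 at the highest. No interval therefore held a change of more than 1.51-fold in either direction. This bound is on the measured scale, where the fold of a dim gene may be understated. Ereg, Egf and Nrg1 had means below the array medians.

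As a coarse check of the labelled tissue, markers were read only as bright or dim on these arrays, whose medians were 5.48 to 5.53. All 10 epithelial markers, among them Epcam, Cdh1 and Vil1, had means above these medians, the lowest at 7.87. Of these markers Krt19 alone passed the test between the groups, higher by 0.33 with pegtarazimod (limma adjusted p = 0.035). An unadjusted limma p below 0.05 was found for 5 of the 10. Genes below the lower quartile were taken as not told from background, a rough line because no detection calls were used. A mean above that line does not show that a gene was expressed. Means below it were found for 1 of 8 measured immune markers, 4 of 6 endothelial markers, 3 of 9 fibroblast markers and 3 of 4 neuron and glia markers. None of the immune, endothelial, neuron or glia markers passed the test between the groups by limma (2 of the 18 had an unadjusted p below 0.05), and of the fibroblast markers Vim alone passed, with a difference of 0.63. Across all genes, arrays of replicates 1 and 2 (the first subset) differed from those of replicates 3 to 5 (the second subset) in either group, a split to which the labels give no name, so differences within both subsets are given beside the main results. Over all genes, deviations from the group means correlated at 0.040 to 0.310 between vehicle and pegtarazimod arrays of the same subset and at -0.277 to -0.096 between arrays of different subsets. Deviations from a group mean cancel within the group, so positive values within subsets entail negative ones between them. The negative values are therefore not separate evidence of the split. In such bulk samples fewer cells of a type and less RNA per cell cannot be told apart.

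**Figure D1:**
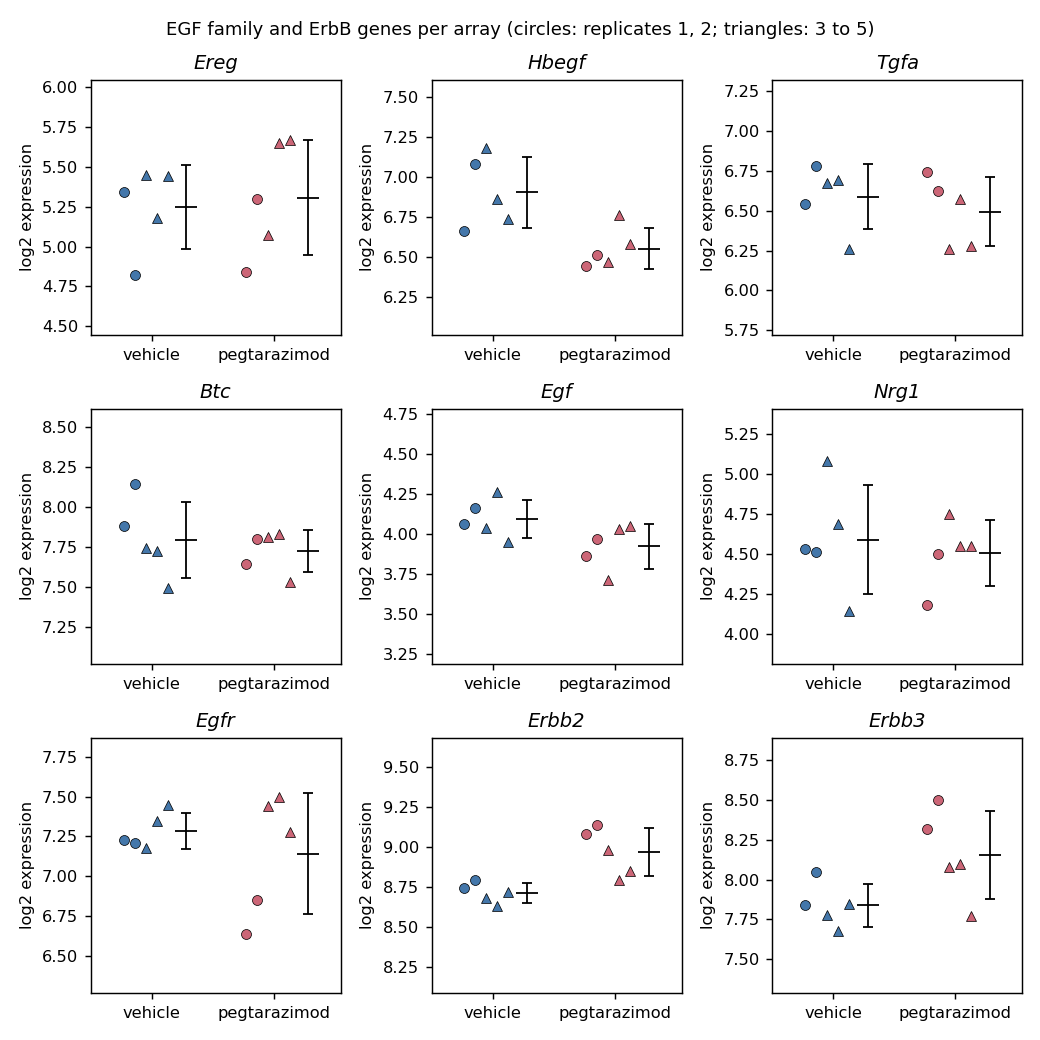
Log2 expression (vertical axis) of the 9 measured genes on 5 vehicle arrays (blue) and 5 pegtarazimod arrays (red), with circles for replicates 1 and 2, triangles for replicates 3 to 5, and the mean with its SD beside the points. Every panel spans the same height. The Erbb2 points of the 2 groups do not overlap, and the Egfr points of pegtarazimod replicates 1 and 2 lie below all others.

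Of the 6 measured ligands among the 10 genes, Hbegf had the largest difference. Hbegf encodes heparin-binding EGF-like growth factor, a ligand that binds heparan sulphate and is produced by epithelia under stress. Its levels on vehicle arrays 1 to 5 were 6.66, 7.08, 7.18, 6.86 and 6.74, and on pegtarazimod arrays 1 to 5 they were 6.44, 6.51, 6.47, 6.76 and 6.58. In 4 of 5 pegtarazimod arrays Hbegf was below the lowest vehicle array, and the groups overlapped through pegtarazimod 4. The mean was 6.90 ± 0.22 (SD, n = 5) with vehicle and 6.55 ± 0.13 (SD, n = 5) with pegtarazimod. The difference of -0.35 ± 0.11 (SE), or 1.27-fold lower, did not pass after adjustment over all genes (limma adjusted p = 0.099). It was -0.39 in replicates 1 and 2 and -0.32 in replicates 3 to 5. Its adjusted p stayed above 0.05 in every alternative that was run, between 0.0536 and 0.321.

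Ereg encodes epiregulin, which binds Egfr and Erbb4 and lies beside Areg in the genome. Its levels were 5.34, 4.82, 5.45, 5.18 and 5.44 on vehicle arrays 1 to 5, and 4.84, 5.30, 5.07, 5.65 and 5.67 on pegtarazimod arrays 1 to 5. The groups overlapped over most of their ranges, with the lowest arrays at 4.82 and 4.84. The difference of 0.06 had a 95% interval of -0.30 to 0.42 (limma adjusted p = 0.893).

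Tgfa and Egf, the ligands known from Paneth cells, also did not pass. Tgfa measured 6.54, 6.78, 6.67, 6.69 and 6.26 on the vehicle arrays in order of replicate, and 6.74, 6.62, 6.26, 6.57 and 6.28 on the pegtarazimod arrays. The lowest array of each group stood at 6.26, and the difference was -0.09 with a 95% interval of -0.36 to 0.17 (limma adjusted p = 0.765). Egf measured 4.06, 4.16, 4.04, 4.26 and 3.95 with vehicle and 3.86, 3.97, 3.71, 4.03 and 4.05 with pegtarazimod. Its difference was -0.17 with a 95% interval of -0.38 to 0.03 (limma adjusted p = 0.371), with -0.20 and -0.16 in the 2 subsets. On 2 of the 10 arrays Egf lay below that array's lower quartile, so that it was a dim gene here and its fold may be understated. Of 10 Paneth cell markers measured on the same arrays 6 fell and 1 (Mptx2) rose, with a median difference of -0.86, and the mean level of the list lay between 8.14 and 9.05 with vehicle and between 7.25 and 8.31 with pegtarazimod. The part of these cells in the Egf and Tgfa values was not tested.

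Btc encodes betacellulin, a ligand of Egfr and Erbb4. Its levels were 7.88, 8.14, 7.74, 7.72 and 7.49 with vehicle and 7.64, 7.80, 7.81, 7.83 and 7.53 with pegtarazimod, replicates 1 to 5 in order. All pegtarazimod values lay within the range of the vehicle values, and the difference was -0.07 with a 95% interval of -0.33 to 0.18 (limma adjusted p = 0.81). Nrg1 encodes neuregulin 1, a ligand of Erbb3 and Erbb4 that is mainly a product of mesenchymal cells in the intestine. It measured 4.53, 4.51, 5.08, 4.69 and 4.14 with vehicle and 4.18, 4.50, 4.75, 4.55 and 4.55 with pegtarazimod. Vehicle 3 was its highest array and vehicle 5 its lowest, so that the vehicle arrays enclosed the others, and the difference was -0.09 with a 95% interval of -0.41 to 0.24 (limma adjusted p = 0.828).

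The receptors Erbb2 and Erbb3 were both higher on average with pegtarazimod, and neither passed. Erbb2 measured 8.74, 8.79, 8.68, 8.63 and 8.72 on vehicle arrays 1 to 5 and 9.08, 9.14, 8.98, 8.79 and 8.85 on pegtarazimod arrays 1 to 5. It was the 1 member of 9 whose groups did not overlap, by a gap of 0.0065 between vehicle 2 and pegtarazimod 4, and 6.71% of all genes had groups that did not overlap. The mean was 8.71 ± 0.06 (SD, n = 5) with vehicle and 8.97 ± 0.15 (SD, n = 5) with pegtarazimod, a difference of 0.26 ± 0.09 (SE) or 1.2-fold (limma adjusted p = 0.126). The adjusted p of Erbb2 was between 0.0594 and 0.4 in the alternatives. Erbb2 was higher by 0.35 in the first subset and by 0.20 in the second.

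Erbb3 measured 7.84, 8.05, 7.78, 7.68 and 7.85 on vehicle arrays 1 to 5 and 8.32, 8.50, 8.08, 8.10 and 7.77 on pegtarazimod arrays 1 to 5. In 4 of 5 pegtarazimod arrays it exceeded the highest vehicle array, and pegtarazimod 5 lay among the vehicle values. The mean was 7.84 ± 0.14 (SD, n = 5) with vehicle and 8.15 ± 0.28 (SD, n = 5) with pegtarazimod. The difference of 0.32 ± 0.13 (SE), or 1.25-fold, did not pass (limma adjusted p = 0.187), and was 0.47 in replicates 1 and 2 and 0.21 in replicates 3 to 5. Its adjusted p in the alternatives ran from 0.0612 to 0.456. Beside these receptors, 4 of 10 enterocyte markers and 6 of 8 goblet cell markers rose and none of either list fell, with median differences of 0.79 and 0.70. The mean enterocyte level lay between 8.69 and 9.31 with vehicle and between 9.48 and 10.52 with pegtarazimod, and the mean goblet level between 7.29 and 7.60 and between 8.16 and 8.39. Their part in the receptor values was not tested.

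Egfr differed little on average but spread widely. It measured 7.23, 7.21, 7.18, 7.35 and 7.45 on vehicle arrays 1 to 5 and 6.64, 6.85, 7.44, 7.50 and 7.28 on pegtarazimod arrays 1 to 5. The SD was 0.11 with vehicle and 0.38 with pegtarazimod, where replicates 1 and 2 were below all vehicle arrays and replicates 3 to 5 were among or just above them. The difference over the 10 arrays was -0.14 with a 95% interval of -0.46 to 0.19 (limma adjusted p = 0.706), and it was -0.01 without pegtarazimod 1, -0.06 without pegtarazimod 2 and -0.23 without pegtarazimod 4. It was -0.47 within replicates 1 and 2 (limma adjusted p = 0.0759) and 0.08 within replicates 3 to 5 (0.809). None of the 9 members passed in either subset by limma, where 6.30% and 3.34% of all genes did. The contrast between these 2 differences was -0.55 ± 0.19 (SE), with an unadjusted limma p of 0.0105 and an adjusted p of 0.452, and so did not pass. Of the 9 members none passed that contrast by limma and Egfr alone had an unadjusted p below 0.05, a limit that 7.65% of all genes met and that 0.0256% of all genes met after adjustment.

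**Figure D2:**
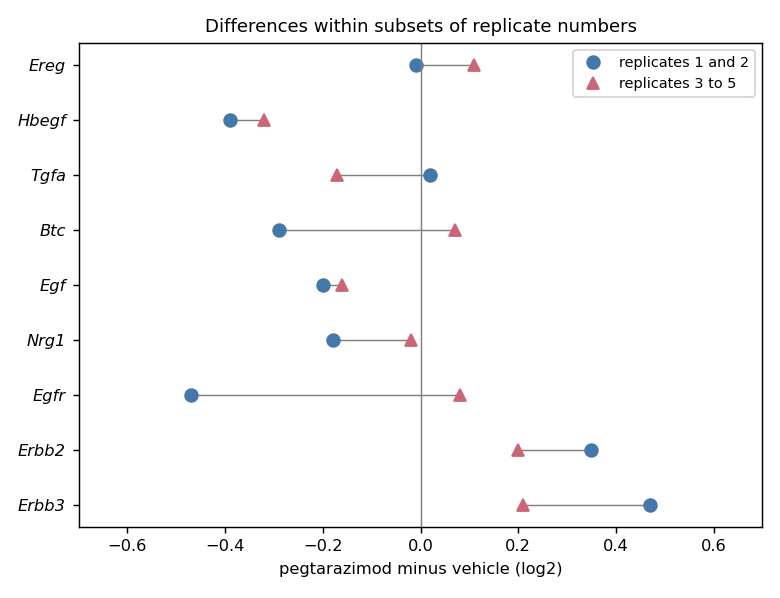
Pegtarazimod minus vehicle (horizontal axis, log2) of each measured gene within replicates 1 and 2 (circles) and within replicates 3 to 5 (triangles), joined by a line. The widest separation is that of Egfr, from -0.47 to 0.08, and 5 of the 9 genes have the same sign in both subsets.

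Genes of the family outside the 10 also did not pass. The ligand genes Epgn, Nrg2, Nrg3 and Nrg4 and the receptor gene Erbb4 were all measured, and none passed by limma, with none below 0.05 without adjustment. Nrg4, a neuregulin that binds Erbb4, had the largest difference (0.36 ± 0.17, SE, adjusted p = 0.274). It measured 6.03, 5.66, 5.71, 5.59 and 5.94 with vehicle and 6.61, 6.60, 5.92, 5.73 and 5.89 with pegtarazimod. The high values were those of pegtarazimod 1 and 2, and within these replicates it differed by 0.76 (limma adjusted p = 0.0125), against 0.10 within replicates 3 to 5 (0.797). The contrast between these differences was 0.66 (limma adjusted p = 0.414) and did not pass. Epgn, which encodes epigen, differed by 0.21, Nrg2 by -0.05, Nrg3 by 0.17 and Erbb4 by -0.06. Nrg3 and Erbb4 lay below the lower quartile on 10 of 10 arrays, a level that cannot be told from background.

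**Figure D3:**
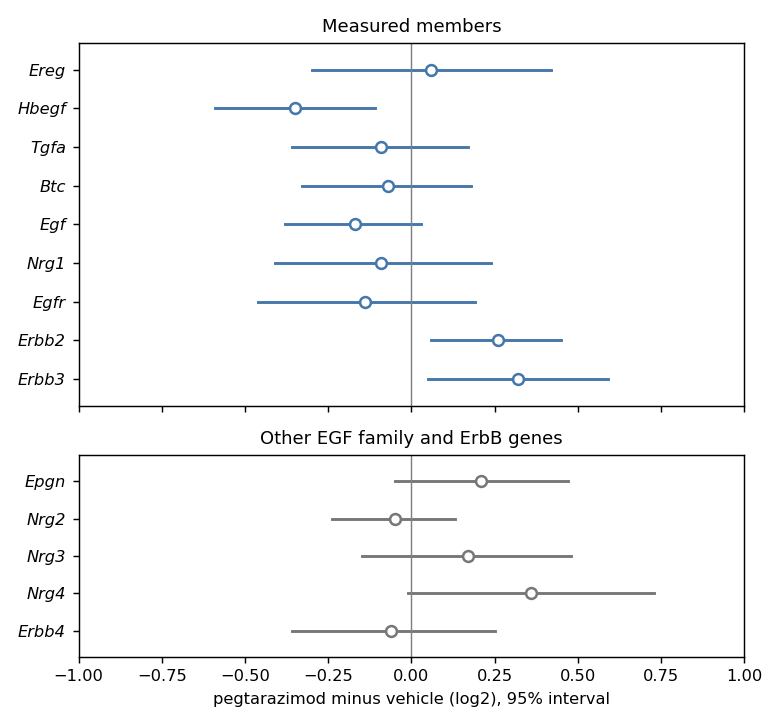
Pegtarazimod minus vehicle (horizontal axis, log2) with the 95% interval of the limma fit for the 9 measured members (upper panel) and 5 further genes of the family (lower panel). Open points mark genes that did not pass at an adjusted p of 0.05, and all 14 points are open. The intervals of Hbegf, Erbb2 and Erbb3 do not reach 0.

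Release of the ligands depends on proteases and on the proteins that carry them to the cell surface. Of 11 genes listed for ligand release and maturation, which include a protease inhibitor, 1 fell and none rose. Rhbdf1, which encodes iRhom1, a partner of the ligand-releasing protease ADAM17, measured 6.08, 6.12, 6.36, 6.32 and 6.35 with vehicle and 5.41, 5.47, 6.15, 5.88 and 5.76 with pegtarazimod. The groups overlapped through pegtarazimod 3, which lay above vehicle 1 and 2. Rhbdf1 fell by 0.51 ± 0.13 (SE) on the log2 scale, or 1.42-fold (limma adjusted p = 0.0432). The call was lost without any of vehicle 2, 3, 4 or 5 or pegtarazimod 1, 2 or 5 (adjusted p = 0.0605, 0.117, 0.105, 0.0993, 0.104, 0.114 and 0.0684, in that order). It was also lost with quantile normalisation (0.0507), with median centring (0.0547) and within replicates 3 to 5 (0.0787). The call of Rhbdf1 held in 11 of 21 alternatives, among them the replicate block (limma adjusted p = 0.00782) and the subset block (0.00309). The mean over probe sets, also among the 11, only repeated the main result. Its relative Rhbdf2 (iRhom2) differed by -0.26 (adjusted p = 0.128). The membrane protease gene Rhbdl2 differed by 0.26 and the metalloprotease gene Adam12 by 0.15, and neither passed. Adam17 and Adam10, the main ligand-releasing proteases, differed by 0.09 and -0.02 and are named here after their values were seen.

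Of 10 genes listed as ErbB inhibitors or turnover genes 1 fell and 1 rose, both of the same small family of transmembrane Lrig proteins. The listing does not establish how Lrig3 acts on these receptors. Lrig1 encodes an inhibitor that promotes the breakdown of ErbB receptors and marks crypt stem cells. It measured 10.01, 9.86, 10.15, 10.09 and 10.16 on vehicle arrays 1 to 5 and 9.28, 9.19, 9.73, 9.54 and 9.50 on pegtarazimod arrays 1 to 5. All pegtarazimod arrays were below all vehicle arrays. Lrig1 fell by 0.60 ± 0.11 (SE) on the log2 scale, or 1.52-fold (limma adjusted p = 0.00753). The difference was -0.70 for replicates 1 and 2 alone and -0.54 for replicates 3 to 5 alone. Its call held in each of 21 alternatives, with an adjusted p of at most 0.0274. Of 9 measured stem cell markers, a list without Lrig1, 7 fell and none rose, with differences from -1.81 to -0.20. The mean level of that list lay between 9.16 and 9.37 on the vehicle arrays and between 7.71 and 8.46 on the pegtarazimod arrays, and its part in the Lrig1 value was not tested.

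Lrig3 measured 8.48, 8.26, 8.08, 8.27 and 8.31 on vehicle arrays 1 to 5 and 8.49, 8.72, 8.64, 8.80 and 8.70 on pegtarazimod arrays 1 to 5. The groups did not overlap, though vehicle 1 and pegtarazimod 1 nearly met. Lrig3 rose by 0.39 ± 0.10 (SE), or 1.31-fold (limma adjusted p = 0.0311). The call was lost without any of vehicle 2, 3, 4 or 5 or pegtarazimod 2, 4 or 5 (adjusted p = 0.0635, 0.0963, 0.0764, 0.0595, 0.077, 0.0506 and 0.0571, in that order), and within replicates 1 and 2 (0.24, adjusted p = 0.454). The call of Lrig3 held in 13 of 21 alternatives, of which the mean over probe sets only repeated the main result. The ubiquitin ligase genes Cblc and Cblb differed by 0.32 and -0.26 (adjusted p = 0.12 and 0.177).

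The start regions of Erbb2, the member whose groups did not overlap, and of Lrig1 and Lrig3, which passed in opposite directions, are shown for their sequence. Each runs from 250 bases before to 50 bases after the start of the gene on its own strand, from RefSeq on GRCm38.p6, a C57BL/6J genome and so not the strain of these organoids. Windows were found for 6 of the 10 members. Both strands were searched for 5 short motifs, and matches, none of which overlapped, are in capitals. The windows are chr11:98412234-98412533 on the plus strand for Erbb2, chr6:94700096-94700395 on the minus strand for Lrig1 and chr10:125965969-125966268 on the plus strand for Lrig3.
Erbb2: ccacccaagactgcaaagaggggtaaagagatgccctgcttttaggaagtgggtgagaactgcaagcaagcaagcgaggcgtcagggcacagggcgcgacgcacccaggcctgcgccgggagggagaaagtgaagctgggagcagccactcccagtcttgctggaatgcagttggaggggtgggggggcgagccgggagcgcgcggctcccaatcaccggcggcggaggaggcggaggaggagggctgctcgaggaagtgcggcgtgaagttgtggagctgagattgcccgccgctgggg
Lrig1: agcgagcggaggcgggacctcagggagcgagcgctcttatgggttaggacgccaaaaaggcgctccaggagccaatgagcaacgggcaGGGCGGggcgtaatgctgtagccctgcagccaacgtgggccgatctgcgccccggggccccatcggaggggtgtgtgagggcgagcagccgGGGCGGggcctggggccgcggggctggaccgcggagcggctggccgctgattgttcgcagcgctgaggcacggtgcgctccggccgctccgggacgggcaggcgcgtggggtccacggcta
Lrig3: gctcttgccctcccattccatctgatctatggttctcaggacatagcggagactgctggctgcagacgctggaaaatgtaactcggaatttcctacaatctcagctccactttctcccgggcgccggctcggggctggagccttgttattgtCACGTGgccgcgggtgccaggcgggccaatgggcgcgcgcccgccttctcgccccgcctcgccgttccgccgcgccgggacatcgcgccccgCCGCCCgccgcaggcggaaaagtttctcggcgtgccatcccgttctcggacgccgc

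The Sp1 letters GGGCGG were found at 2 places in the Lrig1 window and, on the opposite strand, at 1 place in the Lrig3 window, and 35.7% of the 32851 windows of all genes held them. The E-box CACGTG was found at 1 place in the Lrig3 window and in 7.15% of all windows. The AP-1 letters TGANTCA (in 7.81% of all windows) were in none of the 3. The same held for the TCF/LEF letters CTTTGAT (3.73%) and the ETS letters CCGGAA (14.9%). The Erbb2 window held none of the 5 motifs. The share of G and C was 66.0% for Erbb2, 73.0% for Lrig1 and 66.3% for Lrig3, against a median of 52.7% over all windows. A match describes the letters and not a bound site.

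The adaptors and kinases that carry the signal from ErbB receptors to ERK did not pass. Of 11 measured genes of this kind none passed by limma (2 had an unadjusted p below 0.05, Map2k2 and Nras). The kinase gene Map2k2 differed by 0.34 (adjusted p = 0.103), the GTPase gene Nras by -0.28 (0.261), the kinase gene Braf by -0.22 (0.391) and the exchange factor gene Sos2 by 0.21 (0.443). Without pegtarazimod 1 the difference was -0.16 for Nras and -0.14 for Braf, and without vehicle 5 it was 0.12 for Sos2. Map2k2 differed by 0.57 in the first subset, where it passed (adjusted p = 0.0315), and by 0.18 in the second, where it did not (0.515), and the contrast between them did not pass (adjusted p = 0.666).

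Of 16 measured genes that are known to respond to ERK 3 fell and none rose, where 2.39% of all genes fell and 2.50% rose. A negative difference was found for 14 of the 16 and for 9619 of all 19505 genes, with medians of -0.31 and 0.00. The list was chosen with earlier results of these data known, so its contrast with all genes is not an independent test. With the replicate number as a block 6 fell, while the genes passing over all genes went from 954 to 1606. With the 2 subsets as a block 7 fell, while 1820 of all genes passed. The others were Egr1, Myc and Etv5 in both and Etv4 in the second (the last 3 named after their values were seen). Only 2 of the 16 fell with median centring, and likewise without vehicle 3, 4 or 5 or pegtarazimod 1. On the same arrays 7 of 9 stem cell markers and 6 of 10 Paneth cell markers fell, as given above, and their part in these values was not tested. Ier3, an immediate early gene that also responds to NF-kB, measured 7.42, 7.51, 7.68, 7.71 and 7.63 with vehicle and 6.38, 6.15, 6.56, 6.33 and 5.90 with pegtarazimod. It fell 2.51-fold (limma adjusted p = 4.82e-05), with log2 differences of -1.20 and -1.41 in the 2 subsets. Phlda1, which encodes a pleckstrin homology domain protein, measured 7.73, 8.16, 8.03, 8.16 and 8.09 with vehicle and 6.08, 6.75, 7.05, 7.18 and 6.70 with pegtarazimod. It fell 2.43-fold (limma adjusted p = 0.00131), and for both genes all pegtarazimod arrays were below all vehicle arrays.

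Spry1, a feedback inhibitor of receptor tyrosine kinase signalling, fell by 0.59 ± 0.16 (SE) on the log2 scale (limma adjusted p = 0.046). It measured 6.51, 6.70, 7.17, 7.22 and 6.95 with vehicle and 5.96, 6.09, 6.58, 6.49 and 6.49 with pegtarazimod, and the groups overlapped at vehicle 1 and pegtarazimod 3. Its call was lost without any of vehicle 2, 3, 4 or 5 or pegtarazimod 1, 2 or 5 (adjusted p = 0.0542, 0.131, 0.123, 0.0971, 0.111, 0.118 and 0.0567, in that order), with quantile normalisation (0.0549) and with median centring (0.0519). The call of Spry1 held in 12 of 21 alternatives. Within replicates 1 and 2 it differed by -0.58 (limma adjusted p = 0.0268) and within replicates 3 to 5 by -0.59 (0.0115). With the replicate and subset blocks the adjusted p was 0.00175 and 0.000617. The immediate early transcription factor gene Egr1 differed by -0.55 ± 0.15 (SE) and did not pass (adjusted p = 0.0558), but did in 9 of 21 alternatives, with an adjusted p between 0.00386 and 0.227 over all of them. Dusp6, an ERK phosphatase gene named after its value was seen, differed by -0.07 (adjusted p = 0.788).

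**Figure D4:**
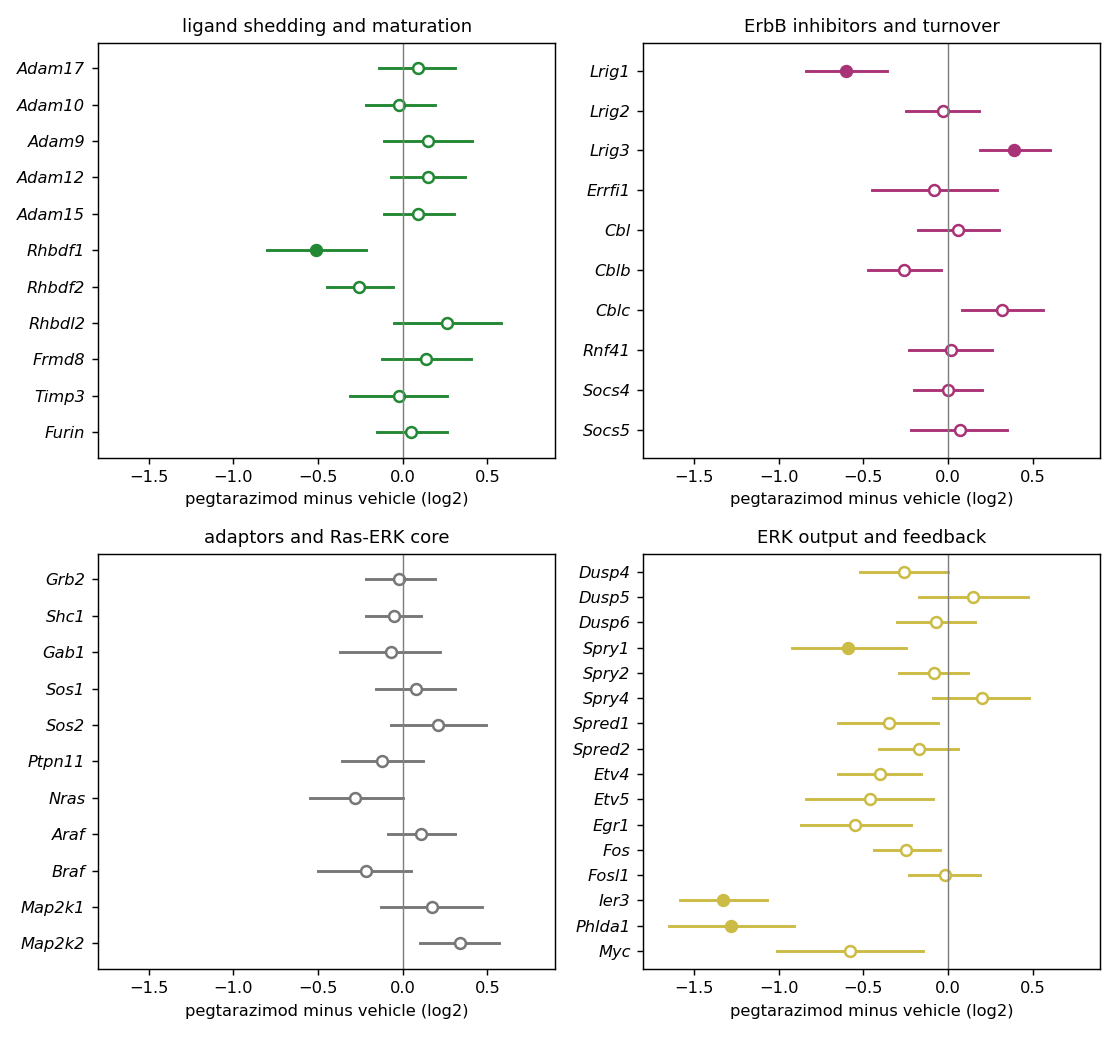
Pegtarazimod minus vehicle (horizontal axis, log2) with the 95% interval of the limma fit for genes of ligand release, ErbB inhibition and turnover, the adaptors and kinases up to ERK, and ERK-responsive genes. Filled points passed at an adjusted p of 0.05 (Rhbdf1, Lrig1, Lrig3, Spry1, Ier3 and Phlda1), and open points did not.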

How the data were processed

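RNA from 10 organoid samples was measured on 10 single-colour arrays, 5 per group, with groups and replicate numbers from the sample titles. The authors deposited 1 log2 value per probe set and array, which per the submitters' processing notes came from oligo (RMA). RMA equalises the arrays by quantiles and so hides a change shared by most genes. No source used here gives versions, annotation or build. Of 22203 probe sets 19572 had 1 gene symbol in the platform annotation, all of which had an identifier in the gene table of GRCm38.p6. The other 2631 were unnamed here. For 55 of the resulting 19505 genes the probe set with the highest mean was used. No detection calls were used, and the number of arrays limits the precision.

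The comparison used lmFit and eBayes of limma 3.58.1 (R 4.3.3) without covariates, with p-values adjusted by Benjamini-Hochberg over 19505 genes. A model with 4 groups gave the differences within replicates 1 and 2 and within replicates 3 to 5, and the contrast between them. The fit was tested on simulated data. Members and lists were chosen with earlier results of these data known. The text names all members, all other family genes and the 4 genes with the smallest p of each pathway list, and genes with a similar profile only for members that passed, of which there were none. Alternatives were quantile normalisation, median centring, leaving out the dimmest 25% or 50% of genes, array weights, robust priors with an intensity trend, blocks for the replicate number and for the subsets, the mean over probe sets, and leaving out each array. Running them on the pathway genes was decided later, with the values known. The mean over probe sets alters the values of only 55 genes, so for the rest it nearly repeats the main fit and hardly tests a call. Plots were made in Python 3.11.15 (matplotlib 3.10.9).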

Additional observations from a re-analysis of the deposited data

Results flagged for a closer look

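Nrg3 on vehicle 3 measured 2.61, below the 2.95 to 3.07 of the other vehicle arrays and farther from them than Dixon's limit for 5 samples allows. Chance flags about 1 in 20 groups, and Nrg3 was dim on all arrays.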

How the results depend on the processing

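None of the 9 measured members passed in any of 21 alternatives, and the lowest adjusted p was 0.0536, for Hbegf without the dimmest 50% of genes, a filter that removed Ereg, Egf and Nrg1. Of 186 values of the members under alternatives 177 kept their direction. This count overstates how steady the directions were, because several alternatives cannot change a member's difference. These are the filters of dim genes, the robust priors with an intensity trend, the 2 blocks and the mean over probe sets. The values that turned within a subset were those of Ereg (-0.01) and Tgfa (0.02) in replicates 1 and 2, and of Btc (0.07) and Egfr (0.08) in replicates 3 to 5. On leaving out 1 array, Ereg ranged from -0.04 to 0.18, Btc from -0.15 to 0.02 and Nrg1 from -0.20 to 0.04, whereas Tgfa (-0.17 to -0.03) kept its direction. Nrg2 turned within replicates 1 and 2 (0.05), and Erbb4 ranged from -0.15 to 0.04 on leaving out 1 array. Over all genes 954 passed, 1820 with the subsets as a block and between 437 (without vehicle 3) and 1245 (without pegtarazimod 4) on leaving out 1 array. With a replicate block 1606 passed. The labels do not say that replicate numbers pair the samples. Deviations from the group means correlated at 0.099 to 0.310 between arrays of the same number and at 0.040 to 0.235 between other arrays of the same subset. Of 10 arrays 8 were closest to their own number. The ranges overlap and each subset holds few arrays, so these values do not establish a pairing. No member passed with the replicate block, and of 16 ERK-responsive genes 6 did in place of 3. Median centring shifted all differences by 0.03.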
